A study of Mus musculus with 15 samples.

Results

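The comparison described here set 2 libraries of the specified early innate lymphoid progenitor (s-EILP.WT) against 3 libraries of the all-lymphoid progenitor (ALP). These 5 libraries were taken by their labels from a series of 15 bulk RNA-seq libraries of sorted mouse bone marrow cells on the C57BL/6 background. s-EILP.WT cells came from mice labelled Tcf7GFP Zbtb16GFP and were sorted as Lin-, Kit+, 2B4+ and a4b7+ cells that were also Tcf7+, Thy1-, Zbtb16low and Flt3high. ALP cells came from mice labelled Tcf7EGFP/+ and were sorted as Lin-, Kit+ and 2B4+ cells that were a4b7-, Flt3high and IL-7Ra+. The groups therefore carried different reporter alleles, and strain and stage cannot be told apart between them. Both s-EILP.WT libraries and ALP replicate 1 belong to the batch labelled 1, and ALP replicates 2 and 3 to the batch labelled 2. The other 10 libraries entered the fit to estimate the spread and the batch term, and some serve here as neighbouring stages. c-EILP.WT (n = 3) shares the s-EILP.WT genotype and is Zbtb16high and Flt3low, EILP_WT (n = 3) is the undivided a4b7+ Tcf7+ Thy1- gate in Tcf7EGFPnull/+ mice, ILCP (n = 2) is Thy1+ and IL-7Ra+ in Tcf7EGFP/+ mice, and EILP_KO (n = 2) is the EILP gate in Tcf7EGFPnull/- mice. Whether replicates came from separate animals is not stated in the labels, so p-values measure the spread between these samples, which may be technical.

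Innate lymphoid cells (ILCs) are tissue lymphocytes that do not rearrange antigen receptors. They arise in the bone marrow from progenitors that still have other lymphoid fates open, pass through a stage marked by the transcription factor TCF-1, encoded by Tcf7, and then express PLZF, encoded by Zbtb16. ALPs hold B cell, T cell, dendritic cell and innate lymphoid potential, and some of them carry early B lineage and antigen receptor recombination transcripts. The HMG-box factor TOX, the bZIP factor NFIL3, GATA3 and the E protein inhibitor ID2 are known regulators of the first steps of ILC development in mice.

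The deposited values are log2 CPM, a read count scaled to library size, that were normalized to a common distribution, so each library has the same highest value of 11.87 and a median close to 4.88. Sequencing depth cannot be read from them. Each library has a lowest value between -4.83 and -4.41 that many genes share, and 10.6% and 9.08% of tested genes lay there in s-EILP.WT, against 13.4%, 10.4% and 5.12% in ALP. A gene at that value is called listed at the lowest value below, and folds are left out for genes with 1 group wholly at it. Pearson's r over tested genes was 0.846 between the s-EILP.WT libraries and 0.813 to 0.866 between ALP libraries, as a description. Both s-EILP.WT libraries held Xist as well as Y-linked transcripts, whereas ALP replicate 1 held Y-linked transcripts only and ALP replicates 2 and 3 Xist only. ALP replicates 1 and 2 also held transcripts of neutrophil granules. The neutrophil granule gene Ngp was at its library's lowest value in both s-EILP.WT libraries, against 6.12, 5.95 and the lowest value of -4.83 in ALP. Over the 10 measured neutrophil genes the log2 summed level was 4.11 and 4.91 in s-EILP.WT, with 6 and 4 genes at the lowest value, against 8.22, 7.38 and 3.66 in ALP, with 2, 0 and 6. The part of these transcripts in the differences described below was not tested.

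Gate and reporter genes served as checks. Tcf7 (chromosome 11, 52252371 to 52283014, minus strand, GRCm38) was 9.98 and 10.23 in s-EILP.WT, against 2.54, 2.64 and 1.91 in ALP. Zbtb16 (chromosome 9, 48654297 to 48836222) was 4.28 and 4.60 in s-EILP.WT, against -4.60, -4.83 and -4.53 in ALP, at or near the lowest value. Both genes were therefore present in every s-EILP.WT library, whose gate is Tcf7+ and Zbtb16low. They were low in every ALP library, whose gate does not use them. Itga4 and Itgb7, which encode the chains of the integrin a4b7, followed their gate. Itga4 was 9.71 and 9.76 in s-EILP.WT, against 7.51, 7.60 and 7.54 in ALP, and Itgb7 was 9.81 and 9.79, against 6.59, 7.17 and 6.91. Flt3, high in both gates, was 9.47 and 8.78 in s-EILP.WT, against 10.98, 10.53 and 10.53 in ALP (fitted difference -2.53, SE 0.77, limma adjusted p = 0.268). Kit, Cd244 (which encodes 2B4), Thy1 and Il7r did not pass either, with adjusted p of 0.975, 0.747, 0.77 and 0.975. Il7r, a part of the ALP gate only, was 6.03 and 6.56 in s-EILP.WT, against 7.91, 8.95 and 7.89 in ALP. Its fitted difference of -0.90 (SE 2.63) is smaller than the gap between the group means, because the batch term is fitted on all 15 libraries.

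Across 12572 tested genes, 101 changed between s-EILP.WT and ALP at a limma adjusted p under 0.05, which is 0.803% of those tested. Of these, 62 were higher in s-EILP.WT (0.493%) and 39 lower (0.31%), and 97 differed by at least 1 log2 unit. The shares of 0.803%, 0.493% and 0.31% are the background for the calls in each list below. An unadjusted p under 0.05 was reached by 1148 genes (9.13%), 628 higher and 520 lower. The median fitted difference of all tested genes was 0.01 on the log2 scale. None of the 101 genes had overlapping libraries between the groups, which was also true of 29.4% of all tested genes. All 3 ALP libraries lay at the lowest value in 5 of the 62 rises, and both s-EILP.WT libraries in 20 of the 39 falls, a condition on 3 libraries in ALP and on 2 in s-EILP.WT. Over all tested genes, 35 had every ALP library at the lowest value and both s-EILP.WT libraries at 0 or more, and 68 had both s-EILP.WT libraries there and every ALP library at 0 or more. Among the changed genes with no group at the lowest value, the median difference was 2.54 for 57 rises and -1.84 for 19 falls.

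How many genes passed depended on the libraries. Leaving out s-EILP.WT replicate 1 or 2, with the lone library assumed to vary like the other groups, gave 26 and 20 changed genes. Leaving out ALP replicates 1, 2 and 3 gave 28, 77 and 110. The 12 genes that passed in each of these 5 fits were all rises: Tcf7, Zbtb16, Tox, Id2, Itga4, Itgb7, Cpa3, Nfkb1, Grb2, Tmsb4x, Bcl2 and Chad. Among them, Tcf7, Zbtb16, Itga4 and Itgb7 belong to the s-EILP.WT gate. A fit without the ALP libraries that hold neutrophil transcripts, which leaves 1 ALP library, gave 19 rises and 0 falls by limma. A fit with a term for Xist and Y-linked transcripts gave 12 rises and 2 falls. Both of these fits were added after the data were seen. Batch 1 alone, with both s-EILP.WT libraries and ALP replicate 1, gave 153 genes, 127 higher and 26 lower, of which 46 were among the 101.

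**Figure D1:**
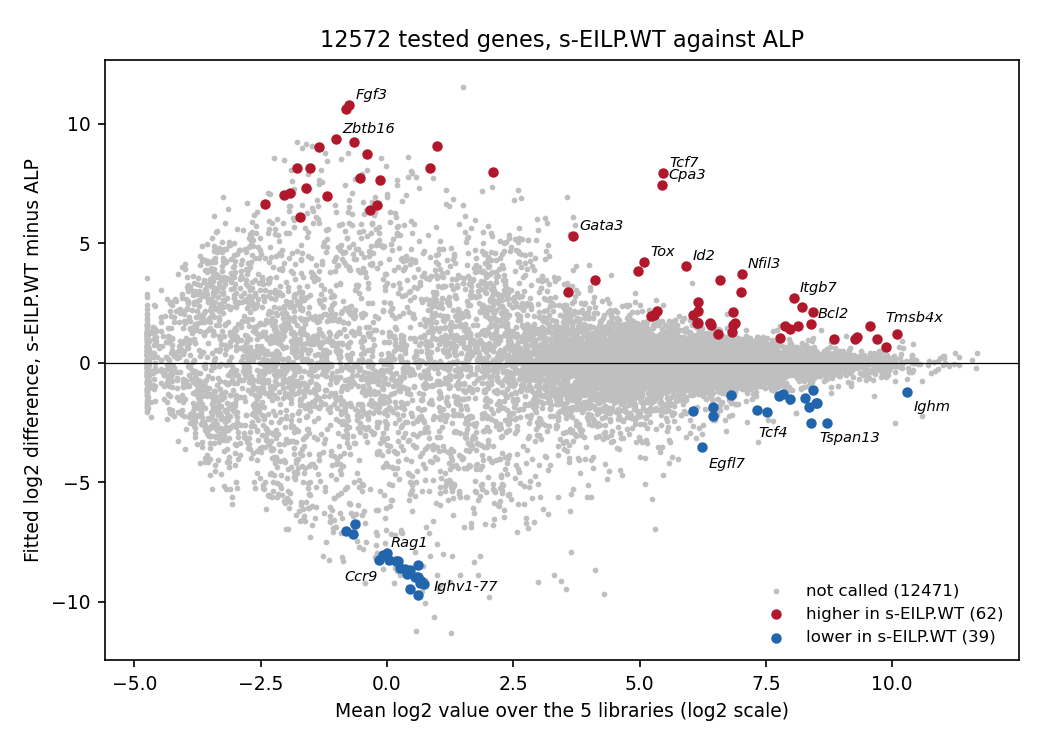
Fitted log2 difference (s-EILP.WT minus ALP, vertical axis) against the mean log2 value over the 5 libraries (horizontal axis) for the 12572 tested genes, one point a gene. Red points are the 62 genes higher and blue points the 39 genes lower in s-EILP.WT at an adjusted p under 0.05, and the falls include a cluster of low genes whose s-EILP.WT values lie at the lowest value.

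ILC regulators were the list with the most rises. Of 20 tested, 7 rose, 0 fell and 13 did not pass, while 0.493% of all tested genes rose. The list's median difference was 4.12 on the log2 scale, or 3.14 over the 16 genes with no group at the lowest value. Tcf7 and Zbtb16 count among the 7 but belong to the gate, and the other rises were Tox, Id2, Gata3, Nfil3 and Runx3. Earlier results of these data were known when the list was drawn up, so its direction is not independent evidence.

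Tox, on chromosome 4 at 6686353 to 6991557, was 7.43 and 7.50 in s-EILP.WT, against 3.34, 3.71 and 3.47 in ALP. The libraries of each group lay close together, and Tox rose by 4.21 (SE 0.28, limma adjusted p = 1.36e-05), an 18.4-fold difference. Id2 was 8.37 and 8.24 in s-EILP.WT, against 3.76, 5.16 and 4.11 in ALP, and rose by 4.04 (SE 0.43, adjusted p = 0.00144), or 16.5-fold. ID2 binds E proteins and keeps them off DNA. Tcf7 and Zbtb16 differed by 7.92 (SE 0.35, adjusted p = 3.95e-07) and 9.36 (SE 0.62, adjusted p = 1.36e-05). These 4 genes passed with any of the 5 libraries left out.

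The calls of Gata3, Nfil3 and Runx3 were lost in some of the 5 fits that leave out 1 library. Gata3 was 6.31 and 6.38 in s-EILP.WT, against -0.71, 3.58 and 2.90 in ALP, so that ALP replicate 1 stood far below the other ALP libraries. Its difference was 5.29 (SE 0.83, limma adjusted p = 0.0126). Nfil3, which is required early in ILC development, was 9.60 and 9.13 in s-EILP.WT, against 5.28, 4.85 and 6.25 in ALP (difference 3.71, SE 0.63, adjusted p = 0.0171). Runx3, a Runt-domain factor of cytotoxic and innate lymphocytes, was 7.21 and 7.60 in s-EILP.WT, against 5.89, 5.71 and 5.55 in ALP. It rose by 1.67 (SE 0.24, adjusted p = 0.0108), the smallest of the 7 differences. Gata3 did not pass without s-EILP.WT replicate 1 or 2, where its difference was 5.33 and 5.26, close to that of the main fit. Nfil3 did not pass there either, with differences of 3.48 and 3.94, and failed without ALP replicate 1 (limma adjusted p = 0.137). Runx3 failed without s-EILP.WT replicate 2, where its difference was 1.48. In these fits 1 s-EILP.WT library is left, so a lost call does not show that the difference rests on the other library. The list held 4 rises without s-EILP.WT replicate 2. Without s-EILP.WT replicate 1 it held 6, namely 5 of the 7 and Tox2, an HMG-box relative of Tox (adjusted p = 0.0162 in that fit). It held 4 without both ALP libraries with neutrophil transcripts.

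The 13 regulators that did not pass were of several kinds. Cbfb, the common partner of Runx factors, was 8.51 and 8.58 in s-EILP.WT, against 8.49, 8.27 and 8.49 in ALP (fitted difference 0.21, SE 0.19, limma adjusted p = 0.846). Ets1 was -1.71 and 5.87 in s-EILP.WT, against 7.41, 7.01 and 6.44 in ALP (adjusted p = 0.671), with a wide gap between the s-EILP.WT libraries. Rora was 4.52 and 4.61, against 2.49, 3.23 and -1.83 (adjusted p = 0.642). Several genes of single ILC or natural killer (NK) fates were at the lowest value in ALP and unequal between the s-EILP.WT libraries. Chosen after their values were seen, Tox2, Eomes and Tbx21 lay at the lowest value in s-EILP.WT replicate 1 and at 4.75, 3.79 and 3.03 in replicate 2, and at the lowest value in all ALP libraries. Lef1, a relative of Tcf7, was 3.26 and 4.09 in s-EILP.WT, with ALP at or near the lowest value (adjusted p = 0.103 by limma). Bcl11b, the T lineage commitment factor, was -3.29 and -4.83 in s-EILP.WT and at or near the lowest value in ALP.

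**Figure D2:**
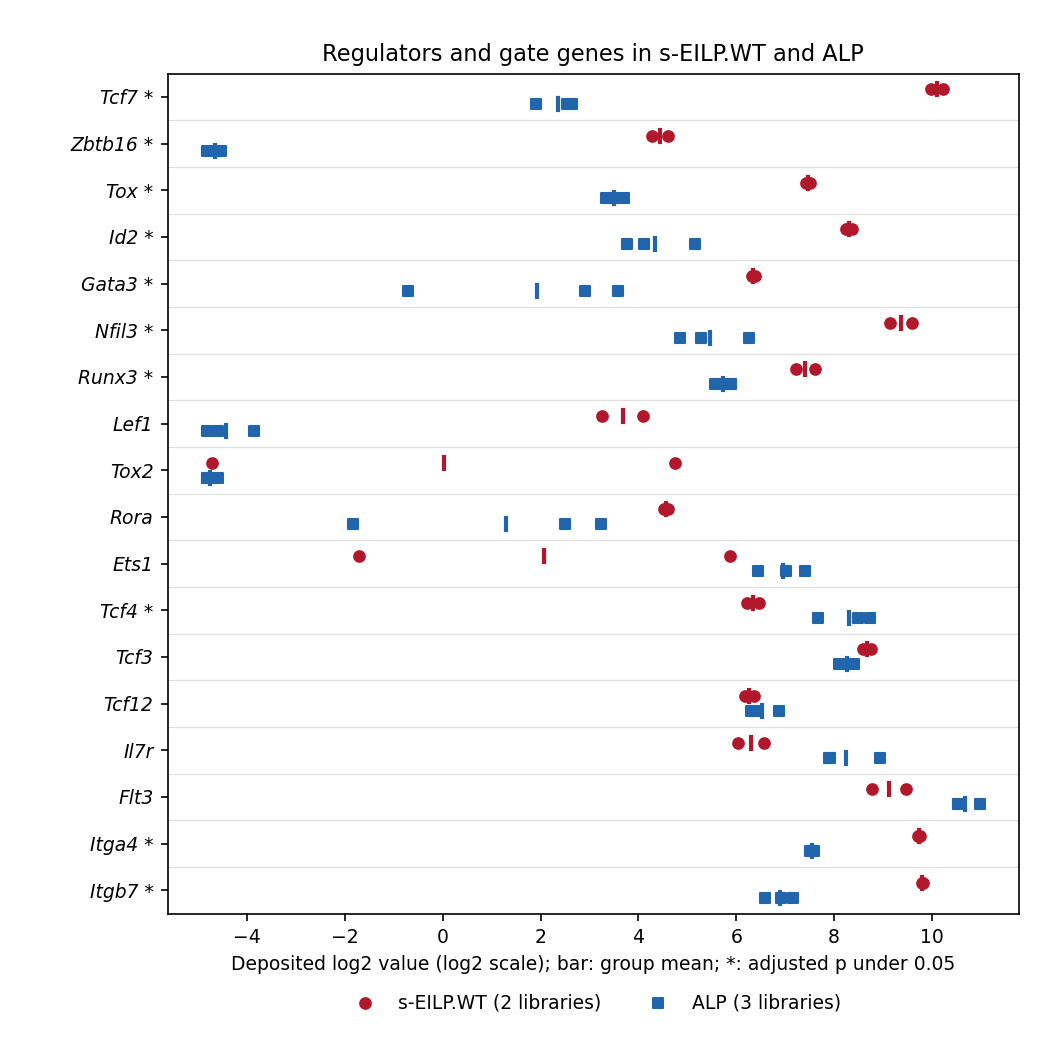
Deposited log2 value (horizontal axis) of 18 regulators and gate genes in each s-EILP.WT library (red circles, upper row of each gene) and each ALP library (blue squares, lower row), with a bar at each group mean and a star where the adjusted p is under 0.05. Tox, Id2, Gata3, Nfil3 and Runx3 are higher in both s-EILP.WT libraries than in any ALP library, whereas Tox2 and Ets1 are split between the s-EILP.WT libraries.

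Promoter windows of the changed regulators are shown because E proteins, which ID2 keeps off DNA, act through a short motif, the E box. RefSeq windows on GRCm38.p6, 250 bases before to 50 bases after the start, were available for 9645 tested genes and 68 of the 101 changed genes. The motifs searched on both strands were CAGCTG or else CAGGTG for the E box, then CTTTGAA or else CTTTGAT or else CTTTGTA or else CTTTGTT for TCF and LEF factors, and TGTGGT for Runx factors. In the windows printed here, capitals mark E boxes.
Id2, chr12:25096043-25096342, minus strand: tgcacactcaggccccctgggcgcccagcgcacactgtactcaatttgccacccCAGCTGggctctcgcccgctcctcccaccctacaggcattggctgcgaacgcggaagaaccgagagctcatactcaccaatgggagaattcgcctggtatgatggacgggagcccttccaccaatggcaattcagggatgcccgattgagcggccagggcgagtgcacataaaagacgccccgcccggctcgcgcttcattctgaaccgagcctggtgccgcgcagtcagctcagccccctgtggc
Gata3, chr2:9878551-9878850, minus strand: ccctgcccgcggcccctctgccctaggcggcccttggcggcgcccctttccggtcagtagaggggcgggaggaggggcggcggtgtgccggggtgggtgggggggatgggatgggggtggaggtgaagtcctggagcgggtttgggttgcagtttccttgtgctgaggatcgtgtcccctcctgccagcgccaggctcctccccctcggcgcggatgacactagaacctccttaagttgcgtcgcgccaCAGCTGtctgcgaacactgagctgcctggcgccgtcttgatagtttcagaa
Nfil3, chr13:52980990-52981289, minus strand: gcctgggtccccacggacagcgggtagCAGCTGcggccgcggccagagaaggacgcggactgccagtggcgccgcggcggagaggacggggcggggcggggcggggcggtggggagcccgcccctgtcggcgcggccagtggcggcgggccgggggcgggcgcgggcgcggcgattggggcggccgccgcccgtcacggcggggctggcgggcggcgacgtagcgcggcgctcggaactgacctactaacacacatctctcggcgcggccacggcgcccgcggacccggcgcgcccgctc
Runx3, chr4:135120395-135120694, plus strand: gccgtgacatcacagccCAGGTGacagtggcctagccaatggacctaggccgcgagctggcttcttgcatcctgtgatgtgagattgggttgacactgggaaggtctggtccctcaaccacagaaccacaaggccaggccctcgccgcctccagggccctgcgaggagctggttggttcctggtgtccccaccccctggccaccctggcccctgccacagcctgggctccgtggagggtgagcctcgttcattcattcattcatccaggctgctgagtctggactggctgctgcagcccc
Rag1, chr2:101649483-101649782, minus strand: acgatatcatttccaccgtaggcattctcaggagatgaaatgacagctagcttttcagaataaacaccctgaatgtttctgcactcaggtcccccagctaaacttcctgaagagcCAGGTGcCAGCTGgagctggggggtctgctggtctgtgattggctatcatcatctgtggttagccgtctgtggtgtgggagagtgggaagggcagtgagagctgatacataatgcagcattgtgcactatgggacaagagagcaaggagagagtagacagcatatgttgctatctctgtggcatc
The window of each of the 4 rising genes held 1 E box, and that of Rag1, a gene lower in s-EILP.WT, held 2, with no overlap with another motif searched. Tox and Zbtb16 have no entry, and the Tcf7 window is not shown.

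Over all changed genes the E box shares were above that of all windows, in both directions. At least 1 E box stood in 43.9% of 41 windows of rising genes and in 48.1% of 27 windows of falling genes, against 28.4% of all 9645 windows. A TCF and LEF motif stood in 14.6% of the rising and 25.9% of the falling genes' windows, against 11.4% of all. A Runx motif stood in 17.1% and 18.5%, against 12.9% of all. None of the 5 windows printed held a TCF and LEF motif. These are matches of letters in short windows, and the part of base composition in the shares was not tested.

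The E protein genes themselves moved unequally. The list of E and Id proteins had 4 tested members, of which Id2 rose, Tcf4 fell and Tcf3 and Tcf12 did not pass. Tcf4, which encodes E2-2, the E protein of plasmacytoid dendritic cells, was 6.21 and 6.47 in s-EILP.WT, against 8.72, 8.49 and 7.67 in ALP. It fell by 2.05 (SE 0.38, limma adjusted p = 0.0311). Tcf3, which encodes E2A, was 8.76 and 8.59 in s-EILP.WT, against 8.29, 8.10 and 8.42 in ALP (difference 0.47, SE 0.17, adjusted p = 0.386). Tcf12, which encodes HEB, was 6.36 and 6.17, against 6.87, 6.30 and 6.38 (adjusted p = 0.983). The fall of Tcf4 did not pass without ALP replicate 1 (adjusted p = 0.224), ALP replicate 2 (0.0795), or s-EILP.WT replicate 1 (0.236) or 2 (0.153).

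Of 18 ILC surface and effector genes, 2 rose (11.1%, beside 0.493% of all tested genes), 0 fell and 16 did not pass, with a median difference of 0.98. Il12rb2, a chain of the interleukin-12 receptor, was 6.97 and 6.98 in s-EILP.WT, against 1.64, 4.33 and 4.91 in ALP (difference 3.82, SE 0.66, limma adjusted p = 0.0204). Cxcr5, the receptor of the follicular chemokine CXCL13, was 4.32 and 5.68 in s-EILP.WT, against -4.60, -3.19 and 2.03 in ALP (difference 8.12, SE 1.61, adjusted p = 0.0408). Both were higher in each s-EILP.WT library than in any ALP library. Il1r1, Il17rb, Il18r1 and Ltb did not pass, and Il1r1 was 7.42 and 7.87, against 7.52, 6.29 and 6.88. Il12rb2 failed without either s-EILP.WT library (adjusted p = 0.147 and 0.153), and so did Cxcr5 (0.167 and 0.297), which also failed without ALP replicate 1 (0.251) or 2 (0.085).

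Of 15 genes of common gamma chain receptors and JAK-STAT signalling, Jak1 rose (6.67%, beside 0.493% of all tested genes) and 14 did not pass. Jak1, the kinase bound to many of these receptors, was 9.76 and 9.81 in s-EILP.WT, against 9.05, 8.78 and 8.93 in ALP (difference 0.98, SE 0.19, limma adjusted p = 0.0345). It failed without ALP replicate 2 or 3 (0.0795 and 0.0704) and without s-EILP.WT replicate 1 or 2 (0.206 and 0.232). Il2rb, the beta chain shared by the interleukin-2 and interleukin-15 receptors and chosen after its values were seen, was 7.21 and 7.34 in s-EILP.WT, against 3.26, -4.83 and 0.28 in ALP (adjusted p = 0.11). Its libraries did not overlap, as in 29.4% of all tested genes, and the ALP libraries were far apart.

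Among 21 chemokine receptor and homing genes, Itga4, Itgb7 and Cxcr5 rose, Ccr9 fell and 17 did not pass. The called share was 19.0%, beside 0.803% of all tested genes. Itga4 and Itgb7 are gate genes and differed by 2.13 (SE 0.20, limma adjusted p = 0.000498) and 2.70 (SE 0.30, adjusted p = 0.0015). Ccr9, a receptor that guides progenitors to the thymus and gut, lay at the lowest value in both s-EILP.WT libraries, against 5.78, 2.59 and 3.19 in ALP (adjusted p = 0.0219). ALP replicate 1 held the highest Ccr9 value, and the call was lost without it (0.142) and without s-EILP.WT replicate 1 or 2 (0.158 and 0.167). Selplg, Itgb1 and Itgal, which encode adhesion molecules of circulating leukocytes, did not pass, and Selplg was 9.95 and 9.77 in s-EILP.WT, against 9.37, 9.53 and 9.21 in ALP (adjusted p = 0.474).

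Cpa3, which encodes mast cell carboxypeptidase A, had the second smallest p of all genes. It averaged 9.94 ± 0.07 in s-EILP.WT (SD, n = 2), against 2.06, 1.76 and 3.49 in the ALP libraries. Cpa3 rose by 7.42 (SE 0.46, limma adjusted p = 1.03e-05), a 171-fold difference, and passed with any of the 5 libraries left out. The other 8 tested genes of the mast cell and basophil list did not pass, a called share of 11.1% beside 0.803% of all tested genes. Slc18a2 and Fcer1g, picked with their values in view and not on that list, also rose (limma adjusted p = 0.0426 and 0.0492). Both calls were lost when any 1 ALP library was left out. Mcpt8, a basophil protease gene, was 7.11 and 6.69 in s-EILP.WT, against 3.83, 2.74 and 2.44 in ALP (fitted difference 2.11, SE 2.21, adjusted p = 0.887). The receptor gene Ms4a2 was at the lowest value in both s-EILP.WT libraries, and Prss34 was -3.29 and -4.83, against 5.06, 0.92 and -0.02 in ALP. The log2 summed level of the list was 10.38 and 10.58 in s-EILP.WT, against 9.37, 8.10 and 8.36 in ALP. Without Cpa3 it was 8.59 and 8.99 in s-EILP.WT, against 9.36, 8.09 and 8.31 in ALP, and the groups overlapped. The list includes Kit, which both gates select for (fitted difference -0.16, limma adjusted p = 0.975). These sums are therefore not of mast cell and basophil transcripts alone, and Mcpt8 by itself did not overlap.

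Itga2b, which encodes the CD41 integrin chain of megakaryocytes and some early progenitors, was the only change among 17 tested erythroid and megakaryocyte genes. It was 5.43 and 6.36 in s-EILP.WT, against -4.60, -4.83 and 2.55 in ALP (difference 9.08, SE 1.87, limma adjusted p = 0.0494). The megakaryocyte gene Pf4 was at the lowest value in all 5 libraries. Zfpm1, a cofactor of GATA factors, was 5.83 and 6.01, against 3.93, 3.06 and 2.96 (adjusted p = 0.254). The call of Itga2b was lost without ALP replicate 1 or 2 (adjusted p = 0.263 and 0.071) and without s-EILP.WT replicate 1 or 2 (0.235 and 0.324).

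Other rises had the largest differences or the smallest p-values or belonged to a list. Fgf3, a secreted fibroblast growth factor, was 5.12 and 5.36 in s-EILP.WT and listed at the lowest value in all 3 ALP libraries (limma adjusted p = 0.0126). Perp, a membrane protein induced by p53, was 4.83 and 5.34 in s-EILP.WT and likewise at the lowest value in every ALP library (adjusted p = 0.0126). Tuba8, an alpha tubulin gene, was 6.36 and 6.33, against -4.60, 0.57 and 1.84 in ALP (difference 7.97, SE 1.31, adjusted p = 0.0137). All 3 were thus present in both s-EILP.WT libraries and absent or low in ALP. Fgf3 and Perp failed without ALP replicate 1 (adjusted p = 0.0511 each), without s-EILP.WT replicate 1 (0.108 each) and without replicate 2 (0.122 and 0.128). Tuba8 failed without s-EILP.WT replicate 1 (0.116) or 2 (0.125). Of the other 4 tested genes of fibroblast growth factors, their receptors and adaptors, none passed, and Fgf13 was at the lowest value in both s-EILP.WT libraries, against 5.96, 4.81 and 3.70 in ALP (adjusted p = 0.115).

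Nfkb1, the gene of the NF-kappaB subunit p105 and p50, was 9.71 and 9.66 in s-EILP.WT, against 7.23, 7.08 and 7.37 in ALP (difference 2.31, SE 0.26, limma adjusted p = 0.0015). Bcl2, which encodes the anti-apoptotic founder of its family, was 9.28 and 9.40, against 7.85, 7.73 and 7.74 (difference 1.62, SE 0.20, adjusted p = 0.00327). Replicates of both genes lay close together and far from the other group. The other 14 tested Bcl2 family genes did not pass, with Mcl1 at 7.65 and 7.61, against 8.23, 7.75 and 7.68. Grb2, an adaptor of receptor tyrosine kinases, rose by 1.53 (SE 0.17, adjusted p = 0.0015), and Tmsb4x, which encodes the actin-binding thymosin beta 4, was 2.29-fold higher (log2 SE 0.13, adjusted p = 0.0015). Grb2 was 8.77 and 8.66 in s-EILP.WT, against 7.17, 7.28 and 7.47 in ALP. Chad, the gene of the matrix protein chondroadherin, was 3.20 and 2.11, against -4.60, -4.83 and -3.86, and is named because it passed with any of the 5 libraries left out. Cdkn1a, which encodes the cell cycle inhibitor p21, was 7.21 and 7.34, against 5.42, 6.32 and 5.74 (difference 1.56, SE 0.32, adjusted p = 0.0492). It was the 1 rise among 11 cyclin D and CDK inhibitor genes, and it failed without ALP replicate 1 (0.27) or 3 (0.0971) and without s-EILP.WT replicate 1 (0.235) or 2 (0.305).

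T lineage genes were not called. Of 21 tested, 0 passed by limma, and the median difference was 1.26. An unadjusted p under 0.05 was reached by 5 (23.8%, beside 9.13% of all tested genes). Lck, a kinase of T cell receptor signalling, was 7.87 and 7.88 in s-EILP.WT, against 7.86, 7.73 and 7.26 in ALP. Cd27, Cd6 and Prkcq had adjusted p of 0.762, 0.914 and 0.935. Cd4, chosen after its values were seen, was at the lowest value in both s-EILP.WT libraries, against 4.70, 3.74 and -4.67 in ALP (adjusted p = 0.388). Cd3d, Cd3e and Cd3g were at or near the lowest value in every ALP library and between -2.75 and 3.45 in s-EILP.WT.

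Of 29 tested T cell receptor gene segments 2 rose (6.90%, beside 0.493% of all tested genes), 0 fell and 27 did not pass, and all 29 differences were positive, with a median of 2.53. Over all 12572 tested genes, 6332 had a positive difference. In 19 of the 29 segments 1 group lay wholly at the lowest value, which largely sets the sign, and the median of the other 10 was 3.52. A segment could also enter the test through libraries of other groups. The shared direction of the segments is therefore a description only. Trbc1, a constant segment of the beta locus, was 4.02 and 5.29 in s-EILP.WT, against -1.83, -4.83 and -4.67 in ALP (difference 8.72, SE 1.18, limma adjusted p = 0.00669). Trbj1-1, a joining segment 4306 bases upstream of it on chromosome 6, was -0.08 and 2.22 in s-EILP.WT and at the lowest value in every ALP library (adjusted p = 0.0451). Neighbouring segments may share reads, so these are not separate observations. Tcrg-C1, a constant segment of the gamma locus, was 4.75 and 6.18, against -4.60, 0.42 and 3.62 (adjusted p = 0.0743). Trbc1 failed without s-EILP.WT replicate 2 (0.0859), and Trbj1-1 failed without any 1 of the 5 libraries (0.0641 to 0.375).

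Of 14 NK and cytotoxic genes, Ccl5 rose (7.14%, beside 0.493% of all tested genes) and 13 did not pass. The median difference was 1.43. Ccl5, a chemokine gene of cytotoxic lymphocytes, was 3.25 and 4.37 in s-EILP.WT, against -4.60, 0.87 and -4.55 in ALP (difference 7.63, SE 1.47, limma adjusted p = 0.0354). It failed without ALP replicate 1 (0.201) and without s-EILP.WT replicate 1 (0.16) or 2 (0.27). Nkg7, a granule membrane protein, was 7.93 and 7.92 in s-EILP.WT, against 7.50, 6.73 and 6.56 in ALP, without overlap (adjusted p = 0.388). Absence of overlap was shared by 29.4% of all tested genes. Ncr1, which marks NK cells, was at the lowest value in all 5 libraries.

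Of 12 tested genes of antigen receptor recombination, 2 fell (16.7%, beside 0.31% of all tested genes), 0 rose and 10 did not pass. The median difference was -0.70. Polm, which encodes the end-joining polymerase mu and is not on that list, rose, at 2.64 and 2.73 in s-EILP.WT and the lowest value in every ALP library (limma adjusted p = 0.0171). Rag1, a subunit of the RAG recombinase whose promoter window is printed above, lay at the lowest value in both s-EILP.WT libraries, against 4.26, 2.88 and 1.98 in ALP (limma adjusted p = 0.0136). Xrcc6, which encodes the Ku70 subunit of DNA end joining, was 7.74 and 7.16 in s-EILP.WT, against 8.96, 8.78 and 8.75 in ALP (difference -1.49, SE 0.24, adjusted p = 0.0126). Rag2, the partner of Rag1, was 2.99 and 4.04 in s-EILP.WT, against 6.98, 6.49 and 6.81 in ALP (difference -4.69, SE 2.94, adjusted p = 0.717). Dntt, the gene of terminal transferase, was 9.05 and 8.26 in s-EILP.WT, against 11.87 in each ALP library, where it held the highest value in the library (difference -2.23, SE 2.11, adjusted p = 0.863). Rag2 and Dntt did not overlap between the groups, which was also true of 29.4% of all tested genes. Both varied widely among the other libraries that share the estimate of the spread. Rag1 failed without ALP replicate 1 (0.0803) and without s-EILP.WT replicate 1 (0.108) or 2 (0.125), and Xrcc6 without ALP replicate 1 (0.0824) or s-EILP.WT replicate 2 (0.15).

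Of 16 B lineage genes, Ighm and Rag1 fell (12.5%, beside 0.31% of all tested genes), 0 rose and 14 did not pass. The median difference was -0.44. Ighm, the constant region of the mu heavy chain on chromosome 12, was 9.65 and 9.64 in s-EILP.WT, against 11.18, 10.60 and 10.43 in ALP. It fell by 1.24 (SE 0.24, limma adjusted p = 0.035), or 2.35-fold, and its libraries did not overlap. Cd79b, a chain of the B cell receptor complex, was 5.59 and 6.06, against 6.25, 6.24 and 6.13 (adjusted p = 0.822). Ebf1, the B lineage determinant, was at the lowest value in both s-EILP.WT libraries, against 1.61, 4.46 and 0.61 in ALP (adjusted p = 0.354), and the adaptor gene Blnk was -3.29 and 1.57, against 7.48, 8.48 and 7.20 (adjusted p = 0.27). Both were picked with their values in view, and neither overlapped between the groups, as in 29.4% of all tested genes. The call of Ighm was lost without ALP replicate 1 (0.24) or 2 (0.074) and without s-EILP.WT replicate 1 (0.221) or 2 (0.22).

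Immunoglobulin heavy chain segments were the list with the most falls. Of 16 immunoglobulin segments and constant regions, 5 fell, 0 rose and 11 did not pass, while 0.31% of all tested genes fell. The median difference was -3.86, or -2.53 over the 11 with no group at the lowest value. Besides Ighm these were Ighv1-75, Ighv1-77, Ighv1-82 and Ighv1-83, variable segments within chr12:115833950-115964250. Each was at the lowest value in both s-EILP.WT libraries. Ighv1-77 was 4.64, 4.41 and 3.89 in ALP (limma adjusted p = 0.00889), and Ighv1-82 was 3.58, 3.94 and 3.09 (adjusted p = 0.0119). All 6 tested variable segments belong to the Ighv1 family, and 5 of them were at the lowest value in both s-EILP.WT libraries. Segments of 1 family may share reads, and whether they did was not tested. The constant regions Igha and Igkc, abundant in plasma cells, did not follow the groups. Igha was -4.72 and 9.32 in s-EILP.WT, against -4.60, -4.83 and 7.60 in ALP, and Igkc was -0.72 and 8.99, against -4.60, -1.63 and 8.36. The list held 0 calls without either s-EILP.WT library, 1 without ALP replicate 1, 2 without ALP replicate 2 and 6 without ALP replicate 3.

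**Figure D3:**
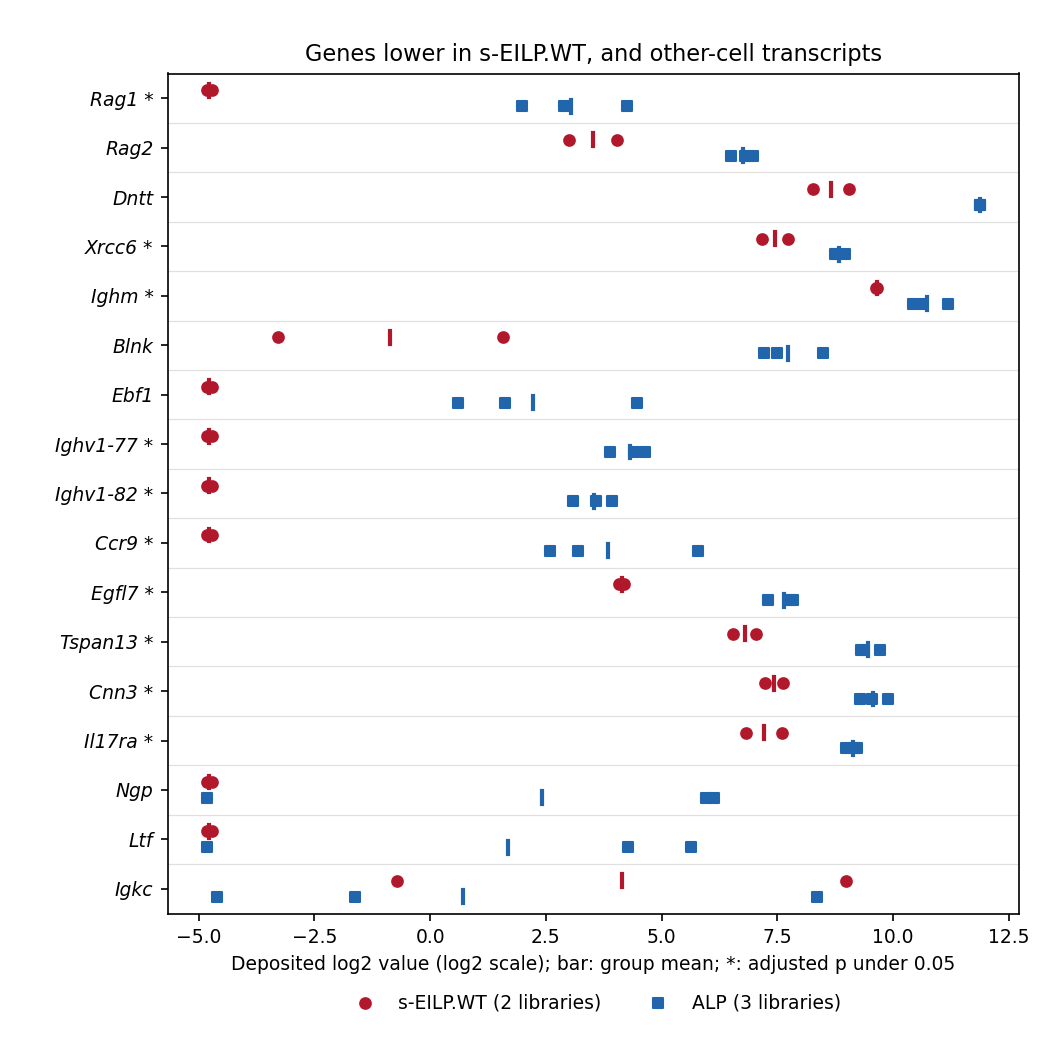
Deposited log2 value (horizontal axis) of genes lower in s-EILP.WT and of transcripts of other cells in each s-EILP.WT library (red circles) and each ALP library (blue squares), with a bar at each group mean and a star where the adjusted p is under 0.05. Rag1, Ccr9 and the Ighv1 segments lie at the lowest value in both s-EILP.WT libraries, while Ngp, Ltf and Igkc differ between libraries of one group.

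Dendritic cell genes held 2 falls and 1 rise. Of 20 tested, Tcf4 and Ccr9 fell, Id2 rose and 17 did not pass, with a median difference of -0.32. Each called gene is also on another list, and Id2 is among the ILC regulators and the E and Id proteins. Of the 20 differences 12 were negative. An unadjusted p under 0.05 was reached by 9 genes, 7 lower and 2 higher. Of all tested genes, 0.803% were called and 9.13% reached that unadjusted p. Irf8, a regulator of dendritic cells and monocytes, was 10.84 and 10.28 in s-EILP.WT, against 10.47, 10.24 and 9.92 in ALP (limma adjusted p = 0.867). Runx2 was 5.83 and 5.68, against 7.59, 6.97 and 6.46 (adjusted p = 0.102), and Bst2 was 5.68 and 5.85, against 6.84, 6.91 and 6.29 (adjusted p = 0.396). Siglech, a plasmacytoid dendritic cell receptor chosen after its values were seen, was 3.88 and -4.83 in s-EILP.WT, against 5.39, 7.59 and 6.17 in ALP (adjusted p = 0.429). The log2 summed level of the list was 11.61 and 11.12 in s-EILP.WT, against 12.09, 11.82 and 11.54 in ALP. In bulk libraries fewer cells of a type and less RNA per cell cannot be told apart.

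Among 22 stem and multipotent progenitor genes, Egfl7 fell, Mycn rose and 20 did not pass. The called share was 9.09%, beside 0.803% of all tested genes. Of the 22 differences, 16 were negative, with a median of -0.89. Egfl7, a secreted EGF-like protein of endothelial and early blood cells, was 4.08 and 4.19 in s-EILP.WT, against 7.78, 7.84 and 7.30 in ALP. It fell by 3.55 (SE 0.60, limma adjusted p = 0.0171), or 11.7-fold, the largest of the falls with every library of both groups above its lowest value. Mycn, a MYC family gene, was 7.09 and 7.41, against 5.23, 5.19 and 5.85 (4.50-fold higher, log2 SE 0.33, adjusted p = 0.0119). Cd34 was 10.23 and 10.11, against 10.49, 10.10 and 10.49 (adjusted p = 0.582), and Mef2c, Satb1 and Myb did not pass. Egfl7 failed without ALP replicate 1 or 2 (0.128 and 0.0585) and without s-EILP.WT replicate 1 or 2 (0.137 and 0.128). Mycn failed without ALP replicate 1 (0.0511) and without s-EILP.WT replicate 1 or 2 (0.0757 and 0.12).

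Other falls were named by the size of the difference or by p, among genes whose ALP mean lay above the median of all tested genes. Tspan13, a tetraspanin gene, had the smallest p of all falls and was 7.04 and 6.55 in s-EILP.WT, against 9.30, 9.37 and 9.71 in ALP (difference -2.53, SE 0.32, limma adjusted p = 0.00359). Cnn3, a calponin that binds actin, was 7.62 and 7.22, against 9.88, 9.54 and 9.29 (difference -2.53, SE 0.40, adjusted p = 0.0126). Il17ra, a chain of the interleukin-17 receptor, was 7.61 and 6.82, against 9.23, 8.98 and 9.17 (difference -1.85, SE 0.33, adjusted p = 0.0213). All libraries of both groups held these 3 genes well above the lowest value. Tgtp2, an interferon-inducible GTPase gene, was 5.14 in both s-EILP.WT libraries, against 7.55, 7.81 and 6.66 in ALP. Ctso, Samsn1, Stk10, Coro7, Tapt1, Csrp1, Ptp4a3 and Aldh2 fell by 1.16 to 2.00 log2 units. Tspan13 failed without s-EILP.WT replicate 2 (adjusted p = 0.062). Il17ra failed without ALP replicate 1 (0.156) or s-EILP.WT replicate 2 (0.219). Each of the others failed without at least 2 of the 5 libraries. Coro7 failed without any 1 of the 5, and Tgtp2, Ctso, Samsn1, Stk10 and Ptp4a3 passed only without ALP replicate 3. Cnn3 had a limma adjusted p of 0.079 without ALP replicate 1. It also failed without s-EILP.WT replicate 1 or 2, where its difference was -2.72 and -2.33.

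The remaining lists held 0 calls by limma. They comprised 12 TCF and LEF partners, 9 Notch pathway genes, 10 MHC class II genes, 21 myeloid genes, 10 neutrophil genes, 3 stromal and endothelial genes, 9 early response genes, 18 interferon response genes, 19 glycolysis genes, 24 cell cycle genes, 83 ribosomal protein genes and 15 mitochondrially encoded genes. At an unadjusted p under 0.05 these lists held 2, 2, 4, 6, 1, 0, 0, 3, 5, 9, 6 and 0 genes in that order. Of all tested genes, 9.13% reached it. Ribosomal protein genes (7.23%) and the lists with 0 such genes lay below that share, and the other lists above it. The 4 of 10 MHC class II genes were 2 higher and 2 lower in s-EILP.WT. The 9 cell cycle genes (37.5%) were all lower. Ctnnb1, which encodes beta-catenin, the partner of TCF and LEF factors, was 8.62 and 8.75 in s-EILP.WT, against 8.47, 8.84 and 9.01 in ALP. Notch1 was 6.31 and 5.61, against 8.27, 7.74 and 7.59, without overlap (difference -1.62, SE 0.69, adjusted p = 0.495). Mpo, the myeloperoxidase gene of myeloid progenitors, was 11.43 and 11.34 in s-EILP.WT, against 10.11, 8.58 and 10.55 in ALP (adjusted p = 0.914), and Lyz2 was 5.63 and 5.83, against 8.22, 8.08 and 7.84 (adjusted p = 0.325). Neither of these myeloid genes overlapped between the groups, which held for 15 of the 21 in their list. Absence of overlap, as for Notch1 too, was shared by 29.4% of all tested genes. Of the 24 cell cycle genes 22 had negative differences, with a median of -0.51, and of the 83 ribosomal protein genes 75, with a median of -0.24, beside 49.6% of all tested genes. The 18 interferon response genes had a median of -1.04. These medians are descriptions of the lists, and no member passed.

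**Figure D4:**
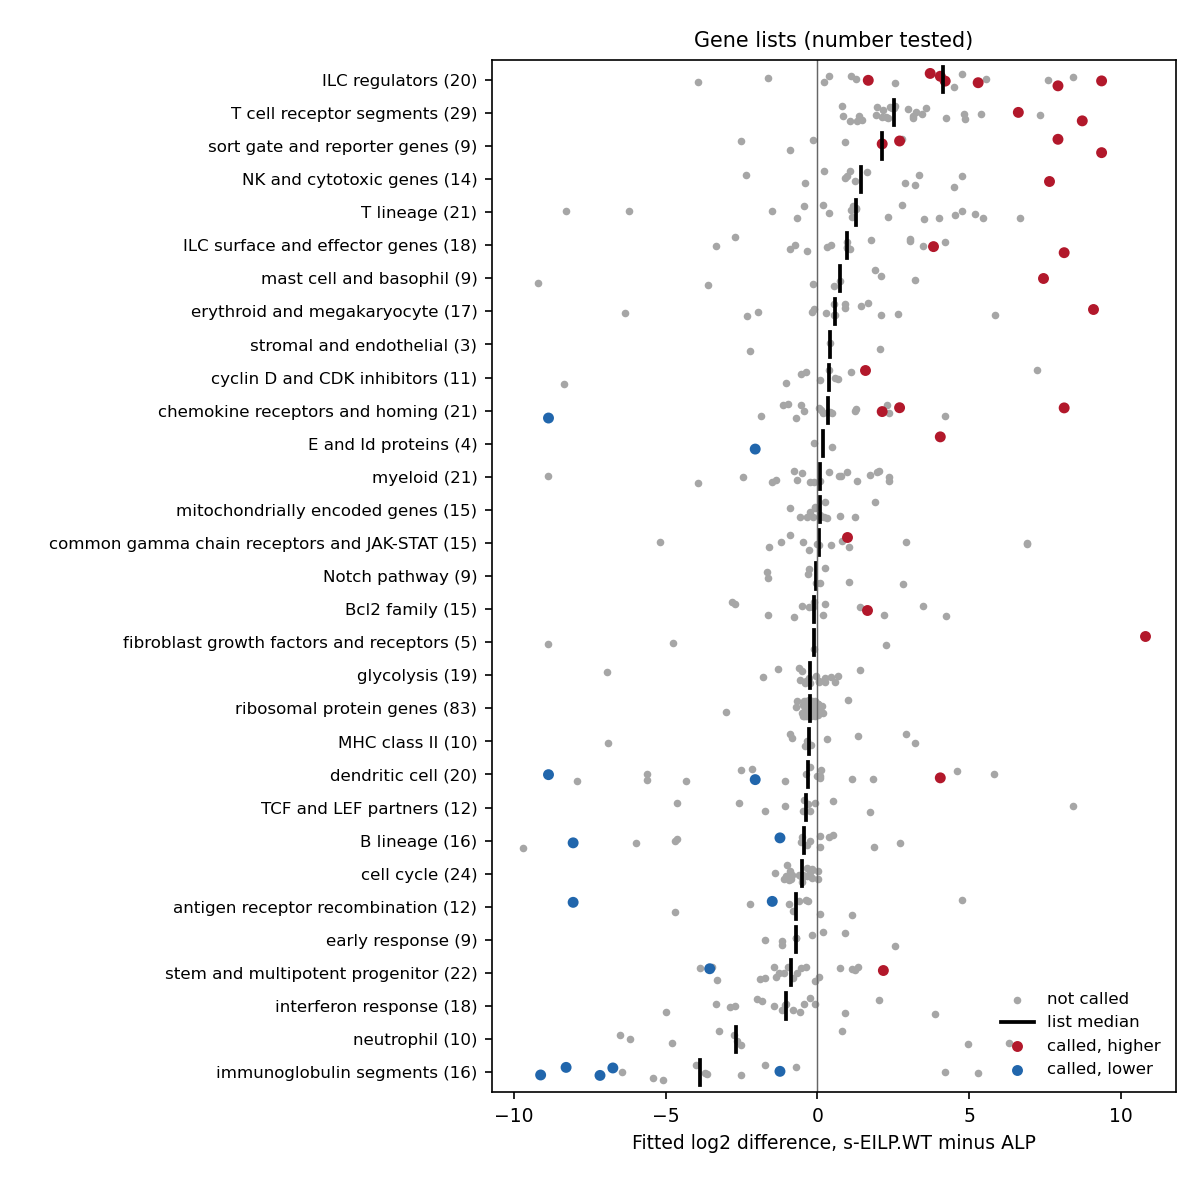
Fitted log2 difference (s-EILP.WT minus ALP, horizontal axis) of every tested member of 31 gene lists, 1 row a list with the number tested in brackets, ordered by median (black bar). Red and blue points are members called higher and lower in s-EILP.WT. ILC regulators hold 7 red points and immunoglobulin segments 5 blue points.

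Beside the neighbouring stages, the s-EILP.WT level of the changed genes varied from gene to gene. Against c-EILP.WT and against EILP_WT, 0 genes passed by limma, with 647 and 598 genes at an unadjusted p under 0.05, so no gene is called different between s-EILP.WT and either group, and 0 to 9 genes passed in the alternatives run. Tox averaged 7.46 ± 0.05 in s-EILP.WT (SD, n = 2), 8.54 ± 0.27 in c-EILP.WT (n = 3) and 8.22 ± 0.40 in EILP_WT (n = 3). Gata3 averaged 6.35 ± 0.05 in s-EILP.WT, 8.02 ± 0.01 in c-EILP.WT, 7.41 ± 0.96 in EILP_WT and 9.81 ± 0.46 in ILCP (SD). Id2 averaged 8.30 ± 0.09, 8.95 ± 0.56, 9.69 ± 0.36 and 11.03 ± 0.28 in the same order. Nfil3 had another order, with 9.37 ± 0.33 in s-EILP.WT, 7.66 ± 0.88 in c-EILP.WT, 8.54 ± 0.79 in EILP_WT and 5.70 ± 0.86 in ILCP. Zbtb16, the gene that divides the EILP gate, averaged 4.44 ± 0.23 in s-EILP.WT, 6.83 ± 0.12 in c-EILP.WT and 6.76 ± 0.47 in EILP_WT (s-EILP.WT minus c-EILP.WT -2.25, SE 0.58, limma adjusted p = 0.663).

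Fgf3 averaged 5.24 ± 0.17 in s-EILP.WT, 8.92 ± 0.47 in c-EILP.WT and 6.62 ± 0.96 in EILP_WT, and Cpa3 averaged 9.94 ± 0.07, 10.20 ± 0.14 and 9.29 ± 0.24. The Cpa3 averages of these groups lay close together, whereas Fgf3 in s-EILP.WT lay below every c-EILP.WT library. Trbc1 averaged 4.66 ± 0.90 in s-EILP.WT, 8.35 ± 0.40 in c-EILP.WT and 9.16 ± 0.09 in ILCP. Among the falls, Rag1 was at or near the lowest value in every library other than ALP. Ccr9 was low in all EILP groups and averaged 8.52 ± 0.35 in ILCP. Angptl2, chosen after its values were seen, was at the lowest value in both s-EILP.WT libraries, against 3.42, 5.55 and 3.66 in ALP (limma adjusted p = 0.0119 for s-EILP.WT against ALP). That call was lost without ALP replicate 1 (0.0575) and without s-EILP.WT replicate 1 (0.0657) or 2 (0.0771). Angptl2 averaged 4.28 ± 1.04 in c-EILP.WT, 4.50 ± 1.25 in EILP_WT and 6.21 ± 0.23 in ILCP.

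**Figure D5:**
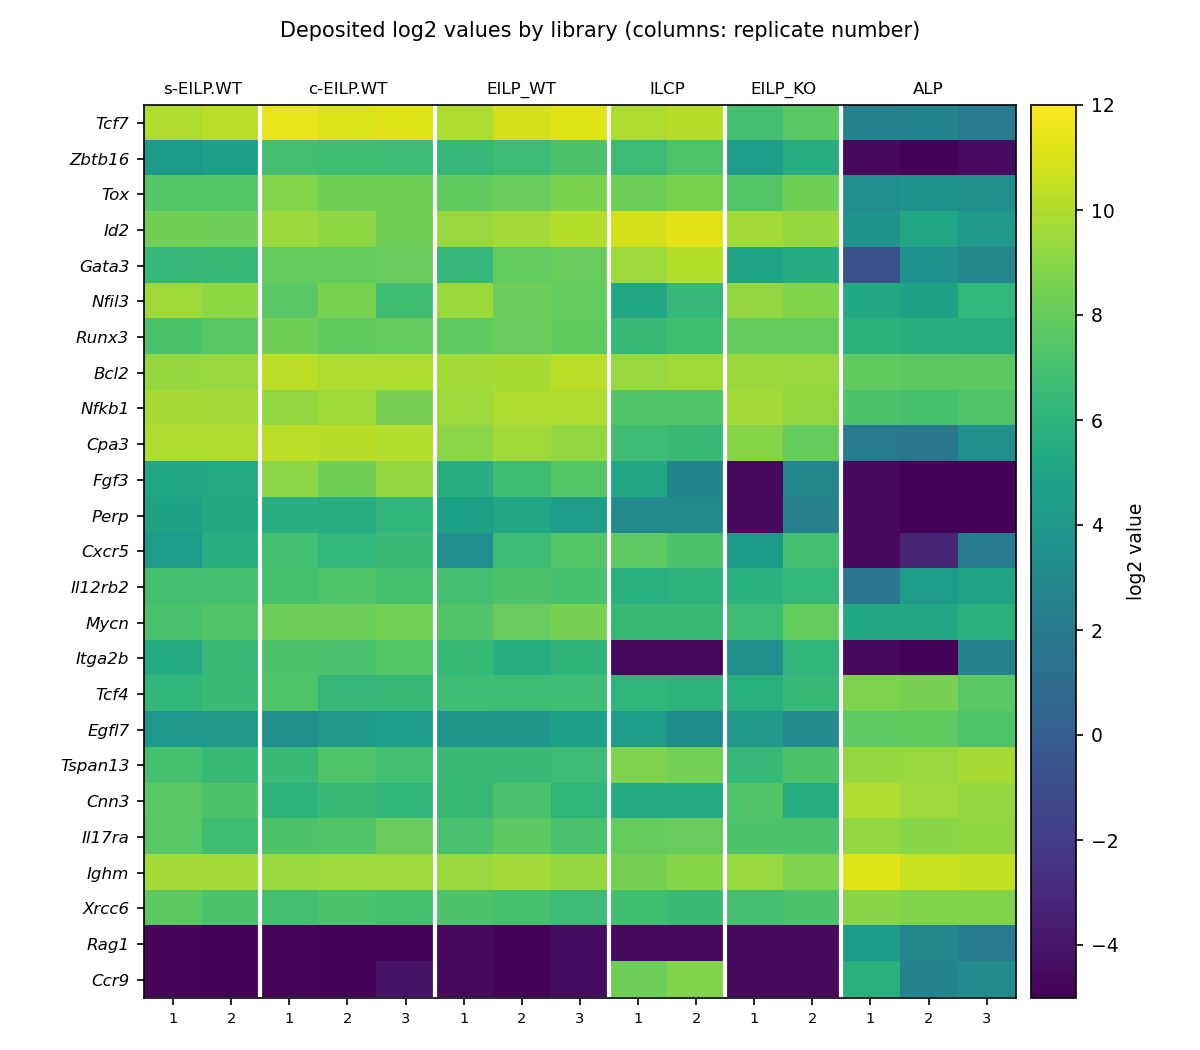
Deposited log2 value (colour, dark for low and yellow for high) of 25 changed genes (rows) in each of the 15 libraries (columns, grouped and numbered by replicate). The upper 16 genes are darker in ALP than in s-EILP.WT, and the lower 9 genes are brighter in ALP than in s-EILP.WT, with Ccr9 brightest in ILCP.

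Some changed genes are neighbours in the genome, which matters where a reporter allele lies close by. With GENCODE positions on GRCm38, 96 of the 101 changed genes could be placed, and 7 pairs of consecutive changed genes lay within 100 kb, some with unchanged tested genes between them. Skp1a, which encodes a subunit of SCF ubiquitin ligases and is named for its place, ends 5512 bases from Tcf7 on chromosome 11, the genes facing each other on opposite strands. It was 10.41 and 10.46 in s-EILP.WT, against 8.99 ± 0.01 in ALP (SD, n = 3; difference 1.55, SE 0.25, limma adjusted p = 0.0136). The call was lost without ALP replicate 1 (0.0704) and without s-EILP.WT replicate 1 (0.108) or 2 (0.128). Skp1a was the 1 changed gene of 12 tested within 500 kb of Tcf7, and 0 of 7 tested genes within 500 kb of Zbtb16 changed by limma. The reporter alleles at Tcf7 differ between the groups, and whether the alleles, the stage or reads shared with Tcf7 move with Skp1a cannot be told apart. Cpa3 and Gyg, which encodes glycogenin, lie 60302 bases apart on chromosome 3 and both rose, as did Pgam2 and Polm, 24126 bases apart on chromosome 11. The calls of Gyg, Pgam2 and Polm were lost without ALP replicate 1 (adjusted p = 0.144, 0.0597 and 0.0511) and without either s-EILP.WT library. The other 4 pairs were the immunoglobulin and T cell receptor segments described above.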

How the data were processed

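Bulk RNA-seq libraries of sorted mouse bone marrow progenitors were analysed from 1 deposited table of 12798 genes in 15 libraries. Per the labels' protocols, RNA was extracted with an RNeasy plus micro kit and amplified and tagged with SMARTer Ultra Low Input and Nextera XT kits. Per the submitters' processing notes, the tools were bcl2fastq 2.17, STAR 2.5.2b, RSEM 1.2.23 and limma with the mm10 build, and the annotation is not given in the sources used here. The deposited values are log2 CPM. Their antilogs sum to 998697 to 999292 per library and all libraries share 1 distribution, as read from the values, so normalization between libraries was done by the authors. Such a step can hide a global change in RNA content. Its 24 unnamed, empty columns were left aside. Depth per library is unknown, so no counting interval or floor is given, and precision rests on the spread between libraries.

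A gene was tested if 2 or more libraries reached a log2 value of 0, which left 12572. The main fit was limma 3.58.1 in R 4.3.3 with group and batch as terms, all 15 libraries, an intensity trend in the empirical Bayes step and Benjamini-Hochberg adjustment over all tested genes, and a gene is called at an adjusted p under 0.05. Fitted differences are s-EILP.WT minus ALP and can differ from the difference of group means through the batch term. The fitting step was tested on simulated data before use. Those data had normal noise, no batch effect and no shared lowest value, with changes planted only in genes above the median. The simulation therefore could not check calls where a group lies at the lowest value. Named genes were gate genes, called list members, up to 4 uncalled members per list by highest mean, and, in each direction, the 12 largest differences and the 8 smallest p-values. The last 2 kinds were taken from called genes that differed by at least 1 log2 unit, had no overlap and had a higher-group mean above the median of all tested genes, without predicted genes or receptor segments. Other genes given values, such as Lef1, Bcl11b, Ms4a2, Pf4, Ncr1, Siglech, Skp1a and the Cd3 genes, were chosen after their values were seen. The comparison, its members and the lists were chosen with earlier results of these data known. Promoter windows came from RefSeq on GRCm38.p6, gene positions from GENCODE on GRCm38. Tables and figures were made with Python 3.11.15, pandas 2.3.3 and matplotlib 3.10.9. Alternatives covered the batch term, the libraries in the fit, filters, scaling, variance models and each left-out library.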

Additional observations from a re-analysis of the deposited data

How the results depend on the processing

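Against the 101 genes that changed between s-EILP.WT and ALP, the 2 groups alone gave 0 genes with a batch term and 18 without one, batch 1 alone gave 153, and a fit with no intensity trend gave 60. Leaving out 1 library at a time gave 20 to 110. Fits added after seeing the data gave 14 with a term for Xist and Y-linked transcripts and 19 without both ALP libraries that hold neutrophil transcripts. Replicate numbers were not treated as pairs in the main fit. Deviations from the group mean had r = 0.02 between s-EILP.WT and ALP replicates 1, and 0.0025 between replicates 2. With 2 s-EILP.WT libraries these deviations mirror each other, so r cannot decide whether the replicates are paired. The fit with the replicate block gave 16 genes. No batch term, other filters, a floor at 0, other scalings, robust variances and library weights gave 88 to 125. None of the 48 called named genes changed direction in the settings run, and directions of uncalled genes are not claimed. For s-EILP.WT against c-EILP.WT, where 0 genes passed, no batch term gave 1, no intensity trend 9 and library weights 1, and single left-out libraries 0 to 7. For s-EILP.WT against EILP_WT, no batch term gave 1, a floor at 0 gave 1, cyclic loess 2 and no intensity trend 9, and single left-out libraries 0 to 6. The cause of these shifts was not tested. Alternatives for linear values or counts do not apply to log2 values and were not run. Limits are the 2 s-EILP.WT libraries, the different reporter strains, unknown depth, and the many genes at the lowest value.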
